A study of Homo sapiens with 8 samples.

Results

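The 40 genes described here serve interferon responses and antigen presentation. They were chosen by symbol from 20344 genes in either of the deposited tables, with earlier results of these data known. Shares over all genes are therefore given for scale and are not a test of the set. The 40 comprise 28 interferon-stimulated genes and 12 genes of HLA class I and peptide processing, which are reported apart. Poly-A RNA of H9 (WA09), an established human embryonic stem cell (hESC) line, was sequenced in 8 libraries of 2 experiments. The crowding experiment had 2 libraries of small, low-density cultures and 2 libraries of crowded cultures, in which adhesion was restricted to small drops of Matrigel on a chamber slide. The knockdown experiment had 2 libraries with a control short hairpin (Ctrl) and 2 libraries after lentiviral short hairpin knockdown of the PEA3-type ETS factor ETV4 (ETV4 KD). All groups were grown on Matrigel in a defined stem cell medium. The labels do not give the hairpin sequence used for RNA-seq, nor whether both ETV4 KD libraries carry the same hairpin. They also do not state whether libraries of a group came from separate cultures. The p-values therefore measure the spread between these libraries, which may be technical. Of the 40 genes, 37 were measured in the crowding experiment and 38 in the knockdown experiment, with IFIT2 in the latter only. IFI44 and OAS1 were not analysed here.

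Interferons bind receptors at the cell surface, the receptors activate JAK kinases, and the kinases phosphorylate transcription factors such as STAT2. STAT2 and IRF9 belong to a complex that binds interferon-stimulated response elements in promoters, and gamma-activated sites are another kind of promoter element of the pathway. The products of these genes block viral entry (IFITM family), tether virions (BST2), sense double-stranded RNA (IFIH1, OAS3) or modify other proteins (ISG15). HLA class I molecules present peptides at the surface together with beta-2 microglobulin (B2M); the peptides are cut by the proteasome, moved into the endoplasmic reticulum by TAP1 and TAP2, loaded with the help of TAPBP and trimmed by ERAP1. Pluripotent stem cells are known for a weak response to interferon, for a part of these genes being expressed without it, and for low surface levels of HLA class I.

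Read counts totalled 50359703 to 62410168 per library, and the 40 genes took 1071 and 1088 CPM (counts scaled by the library's total) in the small libraries, 1289 and 1369 in the crowded libraries, 1520 and 1553 in Ctrl and 1353 and 1312 in ETV4 KD. All 11 hESC markers, POU5F1 and SOX2 among them, were in both tables, and their FPKM, a level scaled by transcript length and by mapped reads, summed to 2992 to 3764 in every library. After ETV4 KD, DNMT3B and TDGF1 (log2 fold changes -0.82 and -0.82) fell and LIN28A (0.51) rose among them. Of 10 blood cell markers, PTPRC, CD14, CD3E and LYZ were in neither table. The blood markers that were present (5 and 6 of 10) summed to 1.05 to 1.57 FPKM in the small libraries, 2.52 to 2.82 in the crowded libraries, 3.28 to 3.41 in Ctrl and 2.27 to 2.54 in ETV4 KD, so their low sum moved with many of the genes described below, and their part in those results was not tested. The same holds for 10 amnion markers, of which 4 and 5 were present: they summed to 3.04 to 3.12, 4.09 to 4.45, 6.91 to 7.05 and 3.75 to 4.32 FPKM. In the same order of groups, fibroblast markers (7 and 8 of 10 present) summed to 118 to 121, 85.2 to 86.1, 157 to 159 and 119 to 129 FPKM, mesendoderm markers (6 and 5 of 10) to 4.46 to 4.78, 0.969 to 1.20, 2.24 to 3.33 and 1.34 to 2.04 FPKM, and neural markers (8 and 8 of 10) to 197 to 204, 133 to 156, 96.4 to 111 and 164 to 191 FPKM, and their part was likewise not tested. These sums follow their highest genes, and single markers moved against them. Of 7 fibroblast markers tested after ETV4 KD, COL1A1 rose (log2 fold change 1.00) and 2 fell. Of 7 neural markers tested, SOX1, under 1 FPKM, rose after crowding (2.27) and 4 fell. After ETV4 KD 2 neural markers rose and DCX fell (-1.95). In bulk RNA, more cells of a type and more RNA per cell cannot be told apart.

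Promoter windows, from 250 bases before to 50 bases after a transcription start, were available from RefSeq (GRCh38.p14) for 33 of the 40 genes. The core of the interferon-stimulated response element, GAAANNGAAA on either strand with overlapping matches counted apart, was present in a window of 23 of the 33 genes, against 4.38% of 27305 genes with such windows. It was present in 16 of 23 interferon-stimulated genes and in 7 of 10 HLA class I and peptide processing genes. The gamma-activated site TTCNNNGAA was present in 10 of the 33 genes against 9.38% of all genes. The ETS core with its preferred flanks, CCGGAAG, was present in 1 of the 33, TAP1, against 12.2% of all genes. That match lies in another TAP1 window (chr6:32852712-32853011) and not in the TAP1 window printed below. The motif matches are letters in a window and were not tested for binding. Genes and motifs were chosen with earlier results of these data known. The windows printed below belong to genes whose expression the results turn on: BST2, IFITM1, OAS3 and IFIH1 as effectors and sensors, and B2M, TAP1, TAPBP and PSMB9 for antigen presentation. Capitals mark the GAAANNGAAA matches. PSMB9, whose start lies next to that of TAP1 on the opposite strand, had no match in its own window.
BST2 (chr19:17405581-17405880, strand -): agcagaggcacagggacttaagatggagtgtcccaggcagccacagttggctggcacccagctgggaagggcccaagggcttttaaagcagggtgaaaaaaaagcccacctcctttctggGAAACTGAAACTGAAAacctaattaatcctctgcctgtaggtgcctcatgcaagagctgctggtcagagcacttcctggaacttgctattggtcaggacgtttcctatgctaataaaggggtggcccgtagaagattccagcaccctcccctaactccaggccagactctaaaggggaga
IFITM1 (chr11:313790-314089, strand +): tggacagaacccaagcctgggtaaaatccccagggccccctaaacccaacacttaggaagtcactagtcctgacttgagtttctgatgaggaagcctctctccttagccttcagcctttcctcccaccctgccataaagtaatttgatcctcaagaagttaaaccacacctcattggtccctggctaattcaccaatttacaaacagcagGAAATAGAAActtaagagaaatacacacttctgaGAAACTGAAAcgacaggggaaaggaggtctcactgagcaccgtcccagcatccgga
OAS3 (chr12:112938224-112938523, strand +): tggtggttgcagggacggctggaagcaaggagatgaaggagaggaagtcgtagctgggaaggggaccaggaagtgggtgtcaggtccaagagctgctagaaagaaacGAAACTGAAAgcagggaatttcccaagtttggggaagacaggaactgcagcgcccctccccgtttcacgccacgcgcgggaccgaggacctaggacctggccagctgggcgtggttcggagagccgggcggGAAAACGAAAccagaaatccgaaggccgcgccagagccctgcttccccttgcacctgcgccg
IFIH1 (chr2:162318635-162318934, strand -): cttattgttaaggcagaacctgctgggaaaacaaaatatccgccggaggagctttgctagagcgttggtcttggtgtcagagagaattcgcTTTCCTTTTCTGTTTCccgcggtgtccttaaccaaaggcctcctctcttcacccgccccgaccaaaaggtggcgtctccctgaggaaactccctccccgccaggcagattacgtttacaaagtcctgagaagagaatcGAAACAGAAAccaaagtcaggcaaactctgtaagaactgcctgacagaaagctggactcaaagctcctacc
B2M (chr15:44711267-44711566, strand +): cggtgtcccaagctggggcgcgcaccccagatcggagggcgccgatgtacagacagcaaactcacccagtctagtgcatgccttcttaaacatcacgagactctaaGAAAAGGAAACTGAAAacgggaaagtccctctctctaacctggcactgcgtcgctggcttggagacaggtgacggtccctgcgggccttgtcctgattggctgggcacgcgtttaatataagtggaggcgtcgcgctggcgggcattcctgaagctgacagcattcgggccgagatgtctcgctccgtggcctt
TAP1 (chr6:32853655-32853954, strand -): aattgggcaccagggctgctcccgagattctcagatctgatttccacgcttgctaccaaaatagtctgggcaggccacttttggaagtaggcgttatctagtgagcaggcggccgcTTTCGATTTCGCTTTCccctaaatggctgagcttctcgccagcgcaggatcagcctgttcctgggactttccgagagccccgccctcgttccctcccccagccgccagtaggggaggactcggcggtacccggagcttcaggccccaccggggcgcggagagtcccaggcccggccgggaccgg
TAPBP (chr6:33314029-33314328, strand -): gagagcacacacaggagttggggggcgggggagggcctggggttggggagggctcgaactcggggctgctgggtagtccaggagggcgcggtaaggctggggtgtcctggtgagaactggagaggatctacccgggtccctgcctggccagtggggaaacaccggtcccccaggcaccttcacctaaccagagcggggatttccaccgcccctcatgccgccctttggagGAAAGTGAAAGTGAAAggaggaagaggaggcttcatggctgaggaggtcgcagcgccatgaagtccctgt
PSMB9 (chr6:32853942-32854241, strand +): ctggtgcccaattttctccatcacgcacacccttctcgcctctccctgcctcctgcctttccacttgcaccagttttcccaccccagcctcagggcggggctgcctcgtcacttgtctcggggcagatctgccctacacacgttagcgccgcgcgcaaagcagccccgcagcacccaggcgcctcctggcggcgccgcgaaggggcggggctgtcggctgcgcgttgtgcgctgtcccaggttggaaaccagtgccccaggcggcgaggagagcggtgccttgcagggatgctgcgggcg

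The interferon-stimulated genes spanned more than 3 orders of magnitude in hESCs before any comparison. By mean FPKM over the 8 libraries, IFITM3 (303) and IFITM1 (298) led, followed by IFITM2 (138), IRF3 (43.6) and BST2 (33.7). The order of the first pair changed with the group. By group mean, IFITM3 lay above IFITM1 in small (236 and 202 FPKM) and ETV4 KD (312 and 248). It lay below IFITM1 in crowded (332 and 356) and Ctrl (333 and 387). The 3 IFITM genes are paralogs side by side on chr11 of GRCh37 (IFITM2 at chr11:303655-309397, IFITM1 at chr11:310041-315272, IFITM3 at chr11:319676-329475), so reads may have been split between them. TRIM22 (14.6), ISG15 (13.8), TRIM25 (8.04) and STAT2 (6.15) followed. In the small libraries, 9 of the 25 interferon-stimulated genes present lay under 1 FPKM, among them IFIT1 (0.272 ± 0.0303 FPKM, SD, n = 2), OAS3 (0.154 ± 0.0220), IFIH1 (0.172 ± 0.0488) and IFI16 (0.0715 ± 0.0124). Among the antigen presentation genes, HLA-C was the highest (mean FPKM 95.5), then B2M (30.6), HLA-B (19.8), HLA-E (15.8) and PSMB10 (13.7). The class I transactivator NLRC5 was the lowest (0.426), and the inducible proteasome subunit PSMB9 was the next lowest (1.67). HLA class I genes are near-identical in parts, and their counts are uncertain in the same way. Of the other genes, IRF3 (with BCL2L12), IRF1 (with IRF1-AS1), MX1 (with TMPRSS2) and TRIM25 (with DGKE and others) also overlap neighbours, so part of their reads is uncertain.

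To ask how these genes respond to cell crowding, the crowded libraries were compared with the small libraries. Genes were called where the edgeR adjusted p was below 0.05 and the absolute log2 fold change over 0.5, and the words rose and fell are used only for such genes. Of 24 interferon-stimulated genes tested, 6 rose (BST2, IFITM1, IFI16, IFI35, OAS3 and IFIH1) and 2 fell (IFIT3 and TRIM22), against 16.1% of all genes called in either direction, 10.7% higher and 5.47% lower. By the adjusted p alone, 9 were higher and 3 lower, against 19.4% and 20.3% of all genes. The median log2 fold change of the 24 genes was 0.25, and that of all 17672 genes tested was 0.0032. IFI27 was in the table but had too few reads to be tested. Separation of the libraries was common: of 19472 genes, 7658 had every crowded library above every small library in FPKM and 5435 below. The 8 calls became 5 with the DESeq2 Wald test and 4 with limma on log2(FPKM + 0.5), and they were also fewer without small replicate 1. That limma fit tested only 19 interferon-stimulated genes, since it left out those under a mean of 0.5 FPKM. IFI16, IFIT3, OAS3 and IFIH1 were among those left out, so their calls were not tested there. Limma on all genes tested them and called none of them. The other 4 calls were kept.

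BST2, which encodes the virion tether tetherin (chr19:17513748-17516439, GRCh37), had the largest change. Its FPKM was 6.68 and 7.01 in the small libraries and 29.5 and 31.7 in the crowded libraries, a 4.29-fold rise (log2 fold change 2.101, SE 0.087, edgeR adjusted p = 3.6e-13). The groups lay far apart, with each pair of replicates close together. IFITM1, which restricts viral entry at the cell surface, went from 203 and 201 FPKM to 337 and 374 FPKM (log2 fold change 0.76, SE 0.060, edgeR adjusted p = 4.93e-09). Its neighbours moved less or the other way: IFITM3, which acts in endosomes, went from 234 and 238 to 327 and 337 FPKM (log2 fold change 0.43, edgeR adjusted p = 3.97e-06, below the fold threshold). IFITM2 went from 115 and 112 to 97.7 and 107 FPKM (log2 fold change -0.21, edgeR adjusted p = 0.00842). The ubiquitin-like modifier ISG15 had 10.1 and 11.4 FPKM at low density and 14.5 and 14.2 FPKM when crowded, without overlap, and passed the adjusted p but not the fold threshold (log2 fold change 0.35, SE 0.12, edgeR adjusted p = 0.0227).

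The other genes that rose had few reads. IFI35, whose product binds NMI, went from 1.06 and 1.39 to 2.15 and 2.39 FPKM (log2 fold change 0.82, edgeR adjusted p = 0.00531; 0.0831 without small replicate 1). OAS3, a synthetase that makes 2-5A on double-stranded RNA, went from 0.139 and 0.170 to 0.224 and 0.341 FPKM (log2 fold change 0.81, edgeR adjusted p = 0.0178). IFIH1 (MDA5), a sensor of long double-stranded RNA, went from 0.138 and 0.207 to 0.286 and 0.387 FPKM (log2 fold change 0.89, edgeR adjusted p = 0.0244). In all of these the crowded libraries lay above the small libraries, but OAS3 and IFIH1 missed the threshold in the DESeq2 Wald test (adjusted p = 0.0567 and 0.0896), without crowded replicate 2 (edgeR adjusted p = 0.243 and 0.169) and without small replicate 1 (0.124 and 0.221). IFI16, a DNA sensor, rested on 15 and 14 reads in the small libraries and 36 and 31 in the crowded libraries, and its call lay at the threshold (log2 fold change 1.06, edgeR adjusted p = 0.0499). It was lost in each of the 4 fits that left out 1 library, with edgeR adjusted p from 0.0515 to 0.279.

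The genes that fell were also effectors. TRIM22, an antiviral ubiquitin ligase whose span overlaps TRIM5, went from 13.6 and 13.4 FPKM to 8.62 and 9.37 FPKM (log2 fold change -0.64, SE 0.071, edgeR adjusted p = 4.87e-07). IFIT3, which binds and steadies IFIT1 on viral RNA and whose span overlaps LIPA, went from 0.420 and 0.364 FPKM to 0.195 and 0.112 FPKM (log2 fold change -1.32, SE 0.35, edgeR adjusted p = 0.00456). IFIT1 and IFIT3 thus lay on different sides of 0, since IFIT1 had 0.294 and 0.251 FPKM in the small libraries and 0.369 and 0.415 in the crowded libraries (log2 fold change 0.45, edgeR adjusted p = 0.150, not past the threshold). IFIT5 had a log2 fold change of 0.067, MX1, a GTPase against incoming virus, 0.44, IFI6 0.55 and the exonuclease ISG20 0.24, and none of the 4 passed the adjusted p. MX1 passed both thresholds without crowded replicate 2 (log2 fold change 0.56) and without small replicate 2 (0.74).

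The transcription factors STAT2, IRF1, IRF3, IRF7 and IRF9 did not pass the adjusted p after crowding. STAT2 had 5.85 and 5.48 FPKM at low density and 6.33 and 6.59 FPKM when crowded, and its partner IRF9 went from 3.20 and 3.82 to 3.74 and 3.30 FPKM. IRF3, the factor downstream of nucleic acid sensors, went from 39.4 and 37.8 to 40.6 and 35.6 FPKM, and IRF7 from 2.77 and 4.37 to 4.25 and 3.54 FPKM. The log2 fold changes were 0.13, -0.055, -0.060 and 0.058, with SE of 0.074, 0.15, 0.067 and 0.18, and IRF1 was at -0.43 (SE 0.17, edgeR adjusted p = 0.0515). The libraries of IRF3, IRF7 and IRF9 overlapped between the groups. Among the ubiquitin and ADP-ribose enzymes, TRIM25, the ligase that activates RIG-I, was slightly higher (log2 fold change 0.26, edgeR adjusted p = 0.00203), while PARP9 (-0.12) and its partner DTX3L (0.023) did not pass.

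**Figure D1:**
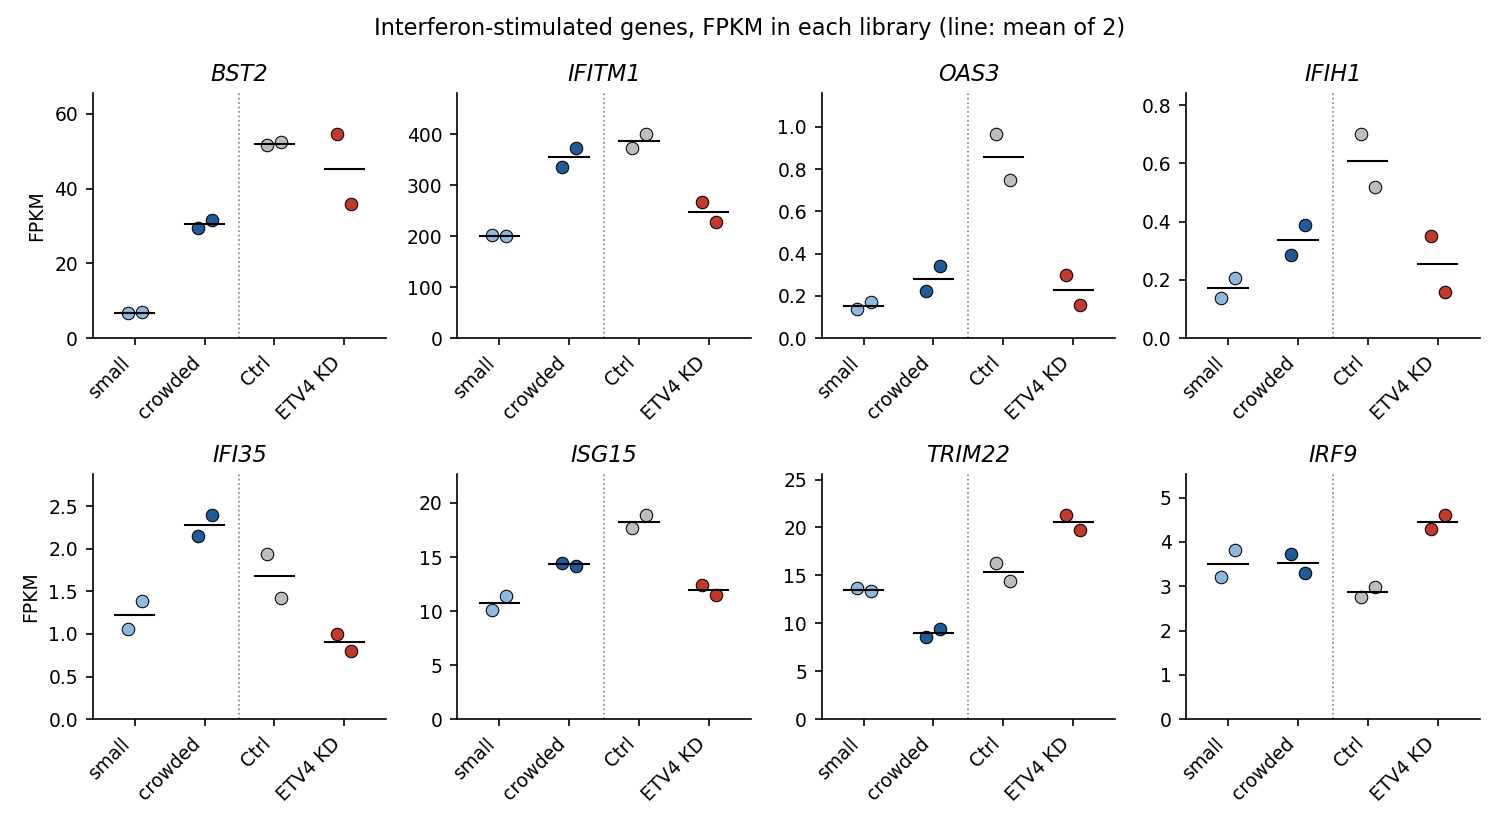
Points give the FPKM (vertical axis, from 0) of 8 interferon-stimulated genes in each of the 8 libraries, by group, and lines give the mean of the 2 libraries; the dotted line separates experiments whose tables were normalized separately. Crowded libraries sit above small libraries for BST2, IFITM1, OAS3, IFIH1, IFI35 and ISG15 and below them for TRIM22, while ETV4 KD libraries sit below Ctrl for IFITM1, OAS3, IFIH1, IFI35 and ISG15 and above it for TRIM22 and IRF9.

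Of the 12 HLA class I and peptide processing genes, B2M and PSMB9 rose in crowded hESCs and 0 fell. The 2 calls of 12 are near the 16.1% of all genes called. By the adjusted p alone 5 were higher and 1, PSMB10, was lower, against 19.4% and 20.3% of all genes, and the median log2 fold change was 0.20. B2M, the light chain shared by all class I molecules (chr15:45003556-45011049, GRCh37), went from 17.9 and 17.9 FPKM to 30.0 and 33.7 FPKM, a 1.71-fold rise (log2 fold change 0.78, SE 0.069, edgeR adjusted p = 2.64e-08). The heavy chains HLA-B, HLA-C and HLA-E did not pass the adjusted p. HLA-C had 91.5 and 92.9 FPKM in the small libraries and 90.9 and 87.8 FPKM in the crowded libraries, HLA-B went from 15.6 and 16.0 to 17.7 and 18.4 FPKM, and HLA-E, a ligand of natural killer cell receptors, from 13.7 and 14.3 to 14.6 and 14.9 FPKM. Their log2 fold changes were -0.10, 0.13 and 0.015, with edgeR adjusted p of 0.167, 0.154 and 0.881.

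Within the peptide processing machinery, the inducible proteasome subunits split. PSMB9 (LMP2) went from 0.654 and 1.11 FPKM to 1.80 and 2.40 FPKM (log2 fold change 1.16, SE 0.27, edgeR adjusted p = 0.00173), and PSMB8 (LMP7) from 9.26 and 8.49 to 11.6 and 12.6 FPKM (log2 fold change 0.40, edgeR adjusted p = 0.00284, below the fold threshold). PSMB10 (MECL-1) went the other way, from 13.0 and 14.3 to 11.2 and 11.4 FPKM (log2 fold change -0.33, edgeR adjusted p = 0.00989). PSMB8, PSMB9 and TAP1 overlap each other or the antisense gene PSMB8-AS1 on chromosome 6, strand-aware counting is not stated, and reads there may be shared. The peptide transporter subunit TAP1 (0.27, edgeR adjusted p = 0.0357) and the loading factor tapasin, TAPBP (0.26, edgeR adjusted p = 0.0102), passed the adjusted p with small log2 fold changes. TAP2 (0.013), the trimming peptidase ERAP1 (0.063) and NLRC5 (0.27) did not.

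In the knockdown experiment the targeted gene was checked first. ETV4 had 90.8 and 95.1 FPKM in Ctrl and 45.6 and 40.9 FPKM in ETV4 KD (log2 fold change -1.15, SE 0.073, edgeR adjusted p = 0.00016), or 2.23-fold lower. Its FPKM in the crowding experiment was 73.2 and 72.6 in the small and 54.2 and 53.9 in the crowded libraries (log2 fold change -0.49, edgeR adjusted p = 9.42e-07), lower by less and short of the fold threshold. Its span overlaps DHX8.

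After ETV4 KD, 12 of 26 interferon-stimulated genes changed, 6 in each direction, against 13.0% of all genes called, 5.88% higher and 7.1% lower. IFITM1, ISG15, IFI35, OAS3, IFIH1 and DTX3L fell, and ISG20, IFI16, IFIT5, IRF3, IRF7 and IRF9 rose. By the adjusted p alone 9 were lower and 7 higher, against 10.9% and 10.6% of all genes, and the median log2 fold change was -0.37. The genes that fell were effectors and sensors together with the ubiquitin ligase DTX3L, and 3 of the 6 that rose were transcription factors. The 12 calls became 5 with limma on log2(FPKM + 1), which tested 21 genes and left out IFI16 and IFIH1 for a low mean FPKM. They were also fewer without Ctrl replicate 1. Separation of the libraries was common here too: of 19551 genes, 5989 had every ETV4 KD library above every Ctrl library in FPKM and 5939 below.

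OAS3 had the largest change of the 26. Its FPKM was 0.965 and 0.749 in Ctrl and 0.297 and 0.156 in ETV4 KD, 3.76-fold lower (log2 fold change -1.91, SE 0.29, edgeR adjusted p = 0.00418). IFIH1 went from 0.700 and 0.518 to 0.352 and 0.157 FPKM (log2 fold change -1.24, SE 0.36, edgeR adjusted p = 0.0400). The replicates of these sensors differed widely under ETV4 KD, and the call of IFIH1 was lost without Ctrl replicate 1 (edgeR adjusted p = 0.0997) and without ETV4 KD replicate 2 (log2 fold change -0.81, edgeR adjusted p = 0.0872), while without ETV4 KD replicate 1 its log2 fold change was -1.88. IFITM1 went from 374 and 400 FPKM to 268 and 229 FPKM (log2 fold change -0.64, SE 0.081, edgeR adjusted p = 0.00235). ISG15 went from 17.7 and 18.9 FPKM to 12.4 and 11.5 FPKM (log2 fold change -0.61, SE 0.12, edgeR adjusted p = 0.0131). For both the ETV4 KD libraries lay below Ctrl with room between them, although the call of ISG15 was lost without either Ctrl library (edgeR adjusted p = 0.0550 and 0.0909).

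IFI35 went from 1.94 and 1.42 to 1.00 and 0.806 FPKM (log2 fold change -0.88, edgeR adjusted p = 0.0478; 0.378 without Ctrl replicate 1, 0.116 without ETV4 KD replicate 2). DTX3L went from 4.14 and 3.90 to 2.62 and 1.87 FPKM (log2 fold change -0.84, SE 0.14, edgeR adjusted p = 0.00693). PARP9, which shares a bidirectional promoter and overlapping ends with DTX3L, was lower by less (log2 fold change -0.40, edgeR adjusted p = 0.0493). TRIM25 went from 8.24 and 7.89 to 5.97 and 5.78 FPKM (log2 fold change -0.45, edgeR adjusted p = 0.00898), short of the fold threshold. IFI6 (-0.80, edgeR adjusted p = 0.0566), IFIT1 (-0.76), IFIT3 (-0.60), IFIT2 (-0.75) and IFI27 (-0.66) had negative log2 fold changes that did not pass. IFI6 passed without ETV4 KD replicate 2 (-1.05), under each of the 3 limma settings and with the replicate block (edgeR adjusted p = 0.0159), and IFIT1 without ETV4 KD replicate 1 (-1.36) and with the block (edgeR adjusted p = 0.0268). BST2, the leading gene of crowding, had 51.7 and 52.4 FPKM in Ctrl and 54.6 and 35.9 FPKM in ETV4 KD, where 1 library lay above and 1 below both Ctrl libraries (log2 fold change -0.20, edgeR adjusted p = 0.374). The other IFITM genes did not pass: IFITM2 went from 177 and 187 to 160 and 149 FPKM (edgeR adjusted p = 0.0544), and IFITM3 from 314 and 353 to 322 and 303 FPKM (edgeR adjusted p = 0.434).

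Of the transcription factors among the 40 genes, IRF3, IRF7 and IRF9 rose after ETV4 KD. IRF3 went from 37.2 and 43.4 FPKM to 53.2 and 61.2 FPKM (log2 fold change 0.52, edgeR adjusted p = 0.0146), IRF7 from 1.99 and 2.05 to 2.84 and 3.55 FPKM (0.68, edgeR adjusted p = 0.0341) and IRF9 from 2.77 and 2.98 to 4.29 and 4.60 FPKM (0.63, edgeR adjusted p = 0.0227). All 3 were higher in every ETV4 KD library, and all 3 calls were lost without Ctrl replicate 1 (edgeR adjusted p = 0.0594, 0.108 and 0.147). IRF3 also lost its call without ETV4 KD replicate 2 (log2 fold change 0.39), IRF7 without Ctrl replicate 2 or ETV4 KD replicate 2 (edgeR adjusted p = 0.0782 and 0.111) and IRF9 without Ctrl replicate 2 (0.0692). STAT2 went the other way, from 7.13 and 6.86 to 5.83 and 5.11 FPKM (log2 fold change -0.35, edgeR adjusted p = 0.0328, below the fold threshold), and IRF1 did not pass (0.14). TRIM22 went from 16.2 and 14.4 to 21.3 and 19.8 FPKM (log2 fold change 0.42, edgeR adjusted p = 0.0157), short of the fold threshold, which it passed without Ctrl replicate 1 (0.52).

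IFI16 had 0.216 and 0.210 FPKM in Ctrl and 0.513 and 0.565 FPKM in ETV4 KD (log2 fold change 1.36, SE 0.27, edgeR adjusted p = 0.0113), the largest rise of the 26 genes. ISG20 went from 0.483 and 0.582 to 0.874 and 1.19 FPKM (log2 fold change 1.03, edgeR adjusted p = 0.0252), and IFIT5 from 1.31 and 1.25 to 2.04 and 1.83 FPKM (0.60, edgeR adjusted p = 0.0231). ISG20 was no longer called without Ctrl replicate 1 (edgeR adjusted p = 0.137) or ETV4 KD replicate 2 (0.0737), and IFIT5 without either Ctrl library (0.0999 and 0.143). MX1 had a log2 fold change of 0.26 and did not pass.

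Of the 12 HLA class I and peptide processing genes, 5 fell after ETV4 KD (HLA-E, TAPBP, PSMB9, NLRC5 and ERAP1) and 0 rose, against 7.1% and 5.88% of all genes. By the adjusted p alone 7 were lower and 1, HLA-B, was higher, against 10.9% and 10.6% of all genes, and the median log2 fold change was -0.38. TAPBP (chr6:33267471-33282061, GRCh37) went from 10.5 and 10.4 FPKM to 6.19 and 4.71 FPKM, 1.92-fold lower (log2 fold change -0.94, SE 0.12, edgeR adjusted p = 0.00230). ERAP1 went from 4.97 and 4.48 FPKM to 2.67 and 2.06 FPKM, 1.99-fold lower (log2 fold change -0.99, SE 0.13, edgeR adjusted p = 0.00260); its span overlaps CAST. Both genes act on peptides inside the endoplasmic reticulum, and for both every ETV4 KD library lay below every Ctrl library. NLRC5, the transactivator of class I genes, went from 0.864 and 0.763 FPKM to 0.423 and 0.411 FPKM (log2 fold change -0.95, SE 0.17, edgeR adjusted p = 0.00877).

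The heavy chains did not move together after ETV4 KD. HLA-E went from 20.9 and 21.2 FPKM to 15.1 and 12.0 FPKM (log2 fold change -0.63, SE 0.10, edgeR adjusted p = 0.00572). HLA-B went from 19.3 and 19.4 FPKM to 25.8 and 26.6 FPKM (log2 fold change 0.44, edgeR adjusted p = 0.0112, below the fold threshold), and HLA-C from 90.7 and 92.3 to 102 and 115 FPKM (0.26, edgeR adjusted p = 0.0730, not passed). B2M, which had risen in crowded hESCs, had 33.4 and 33.7 FPKM in Ctrl and 41.0 and 37.3 FPKM in ETV4 KD (log2 fold change 0.23, edgeR adjusted p = 0.0726). HLA-E was thus lower in every ETV4 KD library, and HLA-B, HLA-C and B2M were higher in every one. Of all 19551 genes, 5989 were higher in this way and 5939 lower. PSMB9 went from 3.02 and 2.13 to 1.17 and 1.11 FPKM (log2 fold change -1.17, SE 0.25, edgeR adjusted p = 0.0157), with an adjusted p of 0.127 in edgeR without Ctrl replicate 1. PSMB8 went from 15.8 and 17.7 to 12.4 and 11.1 FPKM (log2 fold change -0.46, edgeR adjusted p = 0.0217), and TAP2 had a log2 fold change of -0.31 (edgeR adjusted p = 0.0342). TAP1 (-0.18) and PSMB10 (-0.22) did not pass.

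**Figure D2:**
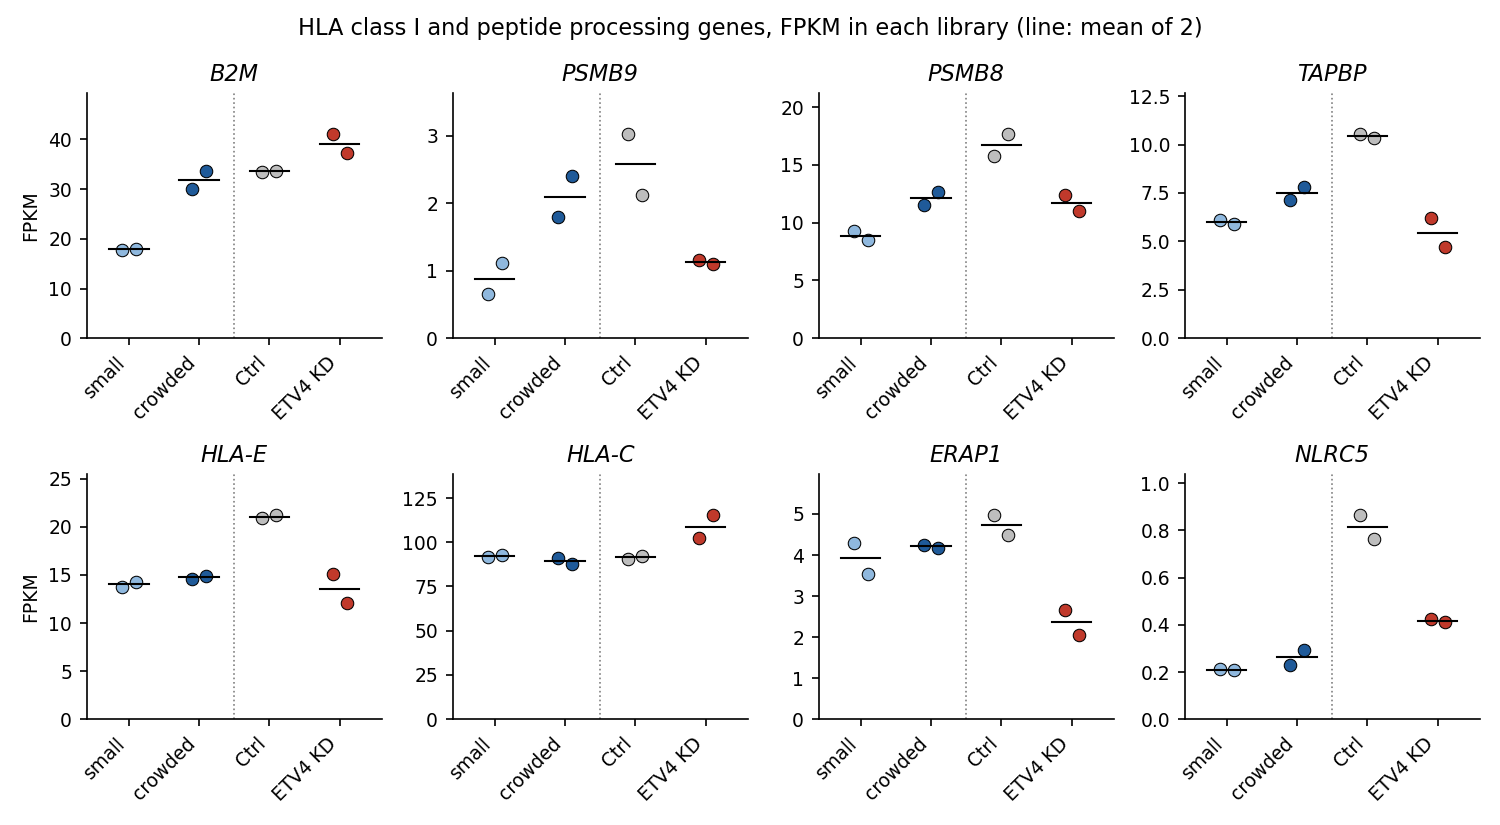
Points give the FPKM (vertical axis, from 0) of 8 HLA class I and peptide processing genes in each library, by group, with lines at the mean of the 2 libraries and a dotted line between the experiments. B2M and PSMB9 are higher in crowded than in small libraries, HLA-C is nearly level there, and TAPBP, ERAP1, NLRC5, HLA-E, PSMB8 and PSMB9 are lower in ETV4 KD than in Ctrl while B2M and HLA-C are higher.

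Because crowding and ETV4 KD are separate experiments with controls of their own, each gene's log2 fold changes could be set side by side. Of the 36 genes tested in both, 20 (55.6%) were higher after crowding and lower after ETV4 KD, against 29.1% of all 17206 genes tested in both. Both changes passed the adjusted p in 9 of the 36 (25.0%), against 3.55% of all genes: IFITM1, ISG15, IFI35, OAS3, IFIH1, TRIM25, TAPBP, PSMB8 and PSMB9. The opposite pattern, lower after crowding and higher after ETV4 KD, passed in 1 gene, TRIM22, against 3.95% of all genes, and 1 gene, IFI16, passed in the same direction in both, against 3.77%. BST2 passed after crowding and not after ETV4 KD, ERAP1 passed after ETV4 KD and not after crowding, and for both the responses differed by the test given next. Over the 36 genes, which are not independent of each other, the log2 fold changes of the experiments had a Pearson r of -0.18 and a Spearman rho of -0.32, beside an r of -0.20 over all genes. The 36 were chosen with earlier results of these data known, so the shares over all genes are not a test of the set.

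**Figure D3:**
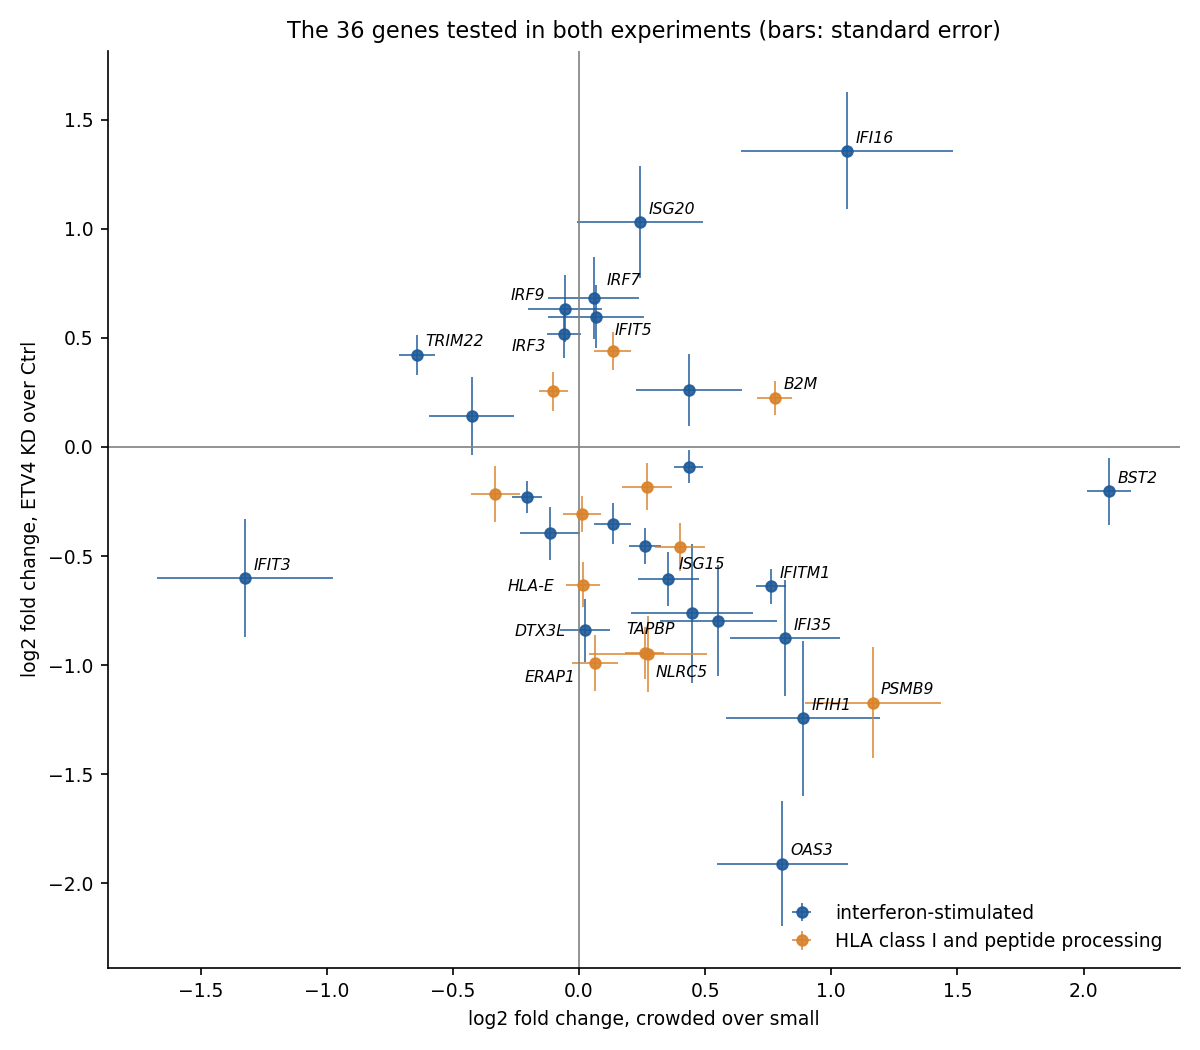
Each point is 1 of the 36 genes tested in both experiments, with the log2 fold change of crowded over small on the horizontal axis and of ETV4 KD over Ctrl on the vertical axis, and bars give standard errors; genes called in either experiment are named. The lower right quadrant, higher after crowding and lower after ETV4 KD, holds 20 of the 36 genes, with BST2 far to the right and OAS3 at the bottom.

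The difference between the responses was then tested gene by gene over the 8 libraries, as the crowding log2 fold change minus the ETV4 KD log2 fold change. It passed an adjusted p of 0.05 in 26 of 37 genes, against 38.5% of all genes tested, namely in 15 of 25 interferon-stimulated genes and 11 of 12 HLA class I and peptide processing genes. The 11 became 7 without crowded replicate 2, without small replicate 1 or without small replicate 2. In 21 genes the crowding response lay above the ETV4 KD response, and in 5 it lay below, against 18.8% and 19.7% of all genes. The differences were largest for OAS3 (2.71, 95% interval 1.90 to 3.52), PSMB9 (2.33, 1.55 to 3.11), BST2 (2.30, 1.92 to 2.68) and IFIH1 (2.12, 1.16 to 3.09, and 2.76 without ETV4 KD replicate 1). Of the genes that passed below 0, TRIM22 (-1.07, -1.29 to -0.85) lay farthest, followed by IRF9 (-0.69, -1.10 to -0.29) and IRF3 (-0.58, -0.86 to -0.30). IRF3, IRF9 and the classical heavy chains HLA-B (-0.31) and HLA-C (-0.36) thus lay on the side opposite to most effectors and to the rest of the peptide processing genes other than PSMB10 (-0.12, -0.43 to 0.19). STAT2 lay on the side of the effectors, at 0.48 (0.25 to 0.70). A difference between the experiments was not detectable for IFITM2 (0.015, -0.17 to 0.20), MX1 (0.17, -0.37 to 0.71), PARP9 (0.27, -0.053 to 0.60), IFI16 (-0.30, -1.19 to 0.59) or IFI27 (0.53, -1.004 to 2.06). ISG20, IFIT3, IFIT5, IRF1 and IRF7 did not pass the adjusted p either, with differences from -0.80 (ISG20) to -0.54 (IFIT5).

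**Figure D4:**
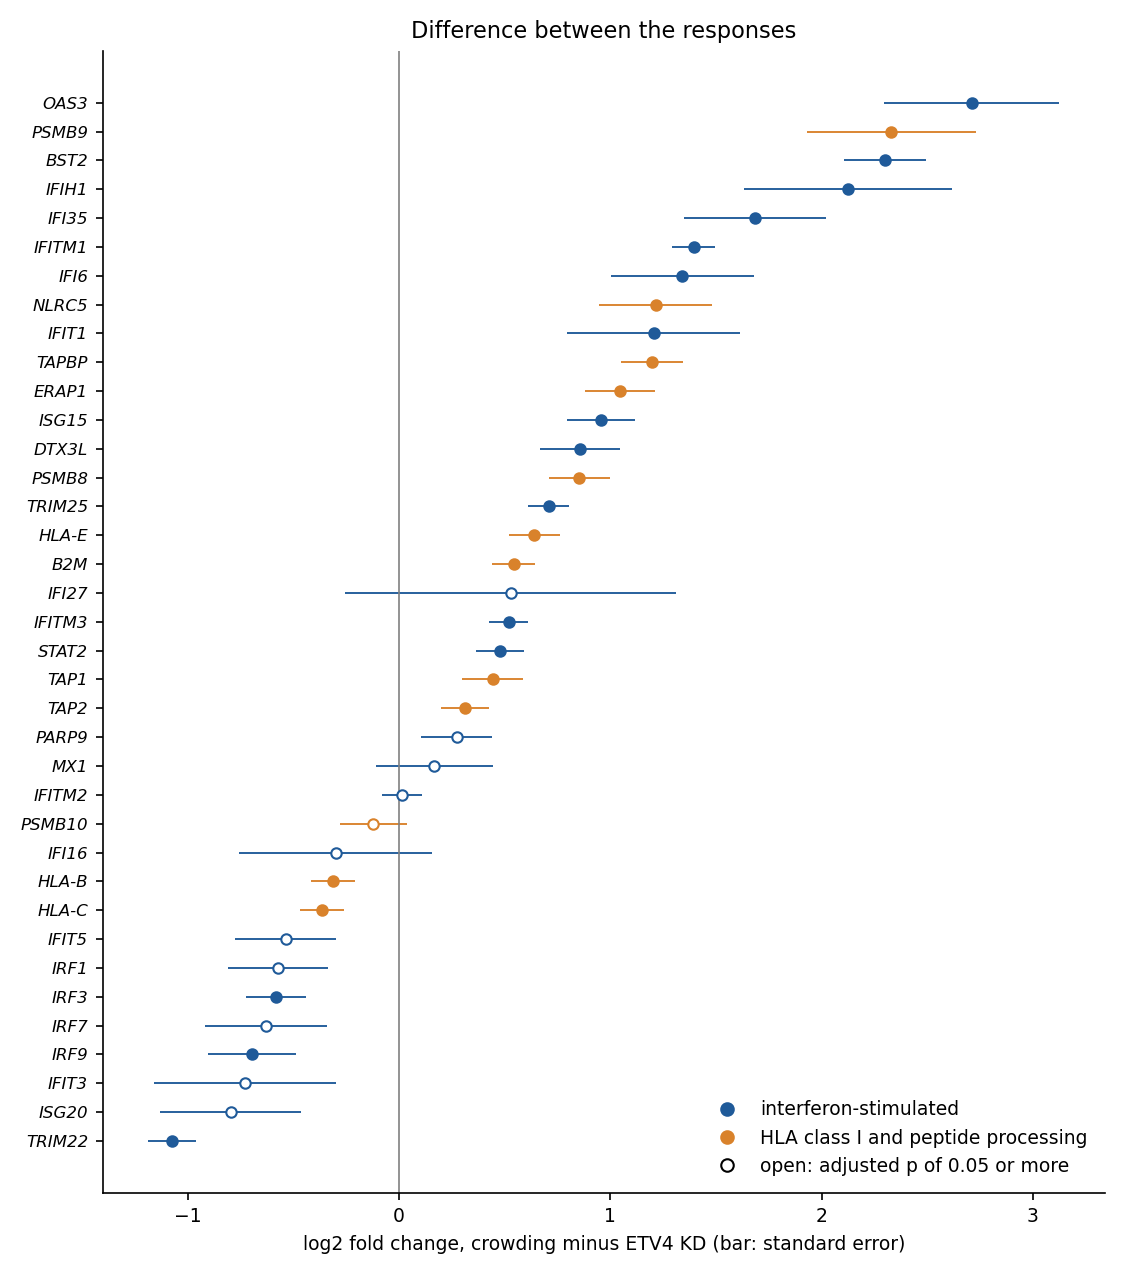
The log2 fold change of crowding minus that of ETV4 KD (horizontal axis, log2 scale) is plotted for the 37 genes tested, with bars of 1 standard error; filled points pass an adjusted p of 0.05 in edgeR and open points do not. OAS3 is at the top with 2.71 and TRIM22 at the bottom with -1.07, and the HLA class I and peptide processing genes lie above 0 except HLA-B, HLA-C and PSMB10.

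Interferon exchanges the constitutive catalytic subunits of the proteasome for inducible ones, so each inducible subunit was also set against its constitutive counterpart by FPKM within a library. PSMB8 was at 6.19% and 5.95% of PSMB5 in the small libraries, 9.47% and 11.1% in the crowded libraries, 13.3% and 13.8% in Ctrl and 8.80% and 7.28% in ETV4 KD. PSMB9 was at 0.503% and 0.795% of PSMB6 in the small libraries, 1.26% and 1.69% in the crowded libraries, 1.95% and 1.26% in Ctrl and 0.722% and 0.642% in ETV4 KD. Neither ratio overlapped between the groups of an experiment. PSMB10 was at 10.8% and 12.1% of PSMB7 in the small libraries and 11.0% and 11.8% in the crowded libraries, which overlap, and at 12.8% and 14.7% in Ctrl against 9.84% and 9.45% in ETV4 KD. PSMB5 and PSMB7 were not level between groups, so these ratios do not follow the inducible subunits alone. PSMB5 had 150 and 143 FPKM in the small libraries and 122 and 114 in the crowded libraries. It had 119 and 128 in Ctrl and 141 and 152 in ETV4 KD. PSMB7 had 120 and 118 FPKM in small, 101 and 96.8 in crowded, 114 and 120 in Ctrl and 136 and 151 in ETV4 KD. With 2 libraries per group an exact two-sided permutation test cannot give a p below 0.333, and none was run on these ratios.

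**Figure D5:**
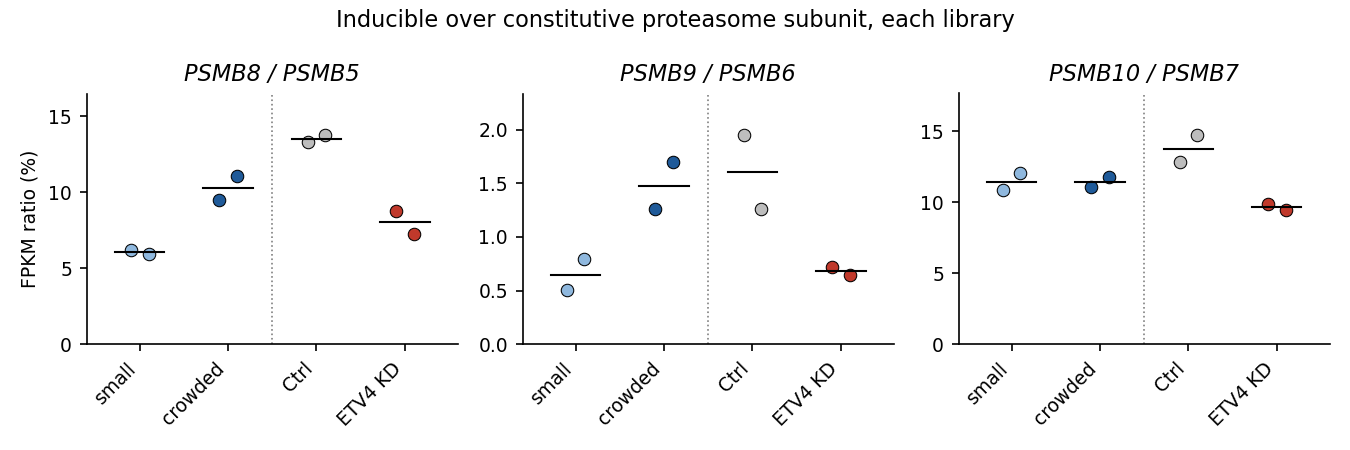
Points give the FPKM of an inducible proteasome subunit as a percentage of its constitutive counterpart (vertical axis, from 0) in each library, with lines at the mean of the 2 libraries. PSMB8 over PSMB5 and PSMB9 over PSMB6 are higher in crowded than in small libraries and lower in ETV4 KD than in Ctrl, while PSMB10 over PSMB7 overlaps between small and crowded.

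Receptors, kinases and inhibitors of interferon signalling were counted from a further list. Of 29 such genes tested in the crowding experiment, 0 rose and 3 fell, against 10.7% and 5.47% of all genes, and by the adjusted p alone 3 were higher and 8 lower, against 19.4% and 20.3%. The genes that fell act as brakes on the pathway, but the inhibitors and phosphatases of the list did not all move together. SOCS3 went from 13.4 and 12.9 to 4.87 and 3.62 FPKM (log2 fold change -1.69, SE 0.11, edgeR adjusted p = 9.63e-08). SOCS1 went from 23.7 and 24.9 to 14.1 and 16.1 FPKM (-0.74) and the ISG15-removing protease USP18 from 2.46 and 2.74 to 1.54 and 1.15 FPKM (-1.01). Below the fold threshold, PIAS1 (0.35) and PTPN6 (0.32) were higher by the adjusted p, and SOCS2 (-0.42), PTPN1 (-0.22) and PTPN11 (-0.17) were lower. SOCS3 is also a target of cytokine signals other than interferon, and USP18 is itself interferon-stimulated. After ETV4 KD, 2 of 30 genes rose and 4 fell, against 5.88% and 7.1% of all genes. The genes that fell were the kinase JAK1 (from 12.4 and 12.0 to 8.21 and 6.92 FPKM, log2 fold change -0.68), the interferon-gamma receptor chain IFNGR2 (from 15.6 and 15.3 to 7.60 and 8.16 FPKM, -0.97), the interferon-lambda receptor chain IL10RB (-0.70) and IRF2 (from 5.33 and 5.62 to 2.59 and 2.51 FPKM, -1.10). SOCS3 (0.51) and SOCS2 (0.84) rose. Below the fold threshold, JAK1 was also lower after crowding (-0.39, edgeR adjusted p = 0.000114) and SOCS1 after ETV4 KD (-0.43, edgeR adjusted p = 0.0379). For JAK1 and SOCS1 the difference between the responses did not pass (edgeR adjusted p = 0.0570 and 0.109). USP18 did not pass after ETV4 KD (-0.49, edgeR adjusted p = 0.105). Of the nucleic acid sensors and their adaptors, 3 of 17 rose and 2 fell after crowding (10.7% and 5.47% of all genes), with SAMHD1, which hydrolyses dNTPs, going from 14.4 and 13.8 to 24.7 and 24.9 FPKM (0.75), DHX58 at 0.57 and the adaptor MYD88 at -0.59, while after ETV4 KD only the kinase EIF2AK2 (PKR) was called of 18 tested (log2 fold change -0.62), against 13.0% of all genes.

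A further 68 interferon-stimulated genes outside the 40 were examined in the same fits. This list was also chosen with earlier results of these data known. Of 48 tested in the crowding experiment 14 rose and 2 fell, against 10.7% and 5.47% of all genes, and the list's median log2 fold change was 0.24. Of 49 tested after ETV4 KD 4 rose and 11 fell, against 5.88% and 7.1% of all genes, with a median log2 fold change of -0.16. Higher after crowding and lower after ETV4 KD by the adjusted p were 10 of 48 (20.8%), against 3.55% of all genes. The antiviral cytidine deaminases APOBEC3G (from 0.545 and 0.326 to 1.16 and 1.31 FPKM with crowding, from 2.44 and 2.01 to 0.862 and 0.863 FPKM with ETV4 KD) and APOBEC3F (1.08 and -1.10 on the log2 scale) were among them, and APOBEC3B rose in both (0.69 and 0.69). IDO1, which degrades tryptophan, also rose in both (1.02 and 0.71). Others called with crowding at a mean FPKM of at least 1 were the lysosomal thiol reductase IFI30 (0.68), IFI27L2 (0.59), TDRD7 (0.53), SP110 (-0.87) and the cholesterol hydroxylase CH25H (-1.07). CH25H had the largest rise after ETV4 KD, from 1.19 and 1.11 to 15.8 and 19.9 FPKM (log2 fold change 3.96, SE 0.17, edgeR adjusted p = 6.63e-05). The tRNA synthetase WARS1 also rose (0.99), and MX2 (-0.56), TRIM14 (-0.91), TRIM56 (-0.54), PARP12 (-0.99), PARP14 (-0.74) and NMI (-0.59) fell.

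Of 35 further antigen presentation genes, 5 of 32 tested rose with crowding and 0 fell, and 1 of 33 rose and 2 fell after ETV4 KD. The 5 calls of 32 are near the 16.1% of all genes called after crowding, and the 3 of 33 lie below the 13.0% called after ETV4 KD. The proteasome activator subunit PSME1 went from 33.4 and 33.7 to 50.1 and 50.9 FPKM with crowding (log2 fold change 0.53) and from 43.9 and 51.1 to 34.9 and 32.6 FPKM with ETV4 KD (-0.48, edgeR adjusted p = 0.0116, below the fold threshold). HLA-F (0.71) and the class II gene HLA-DQB1 (from 2.01 and 2.15 to 4.20 and 5.45 FPKM, 1.15) rose with crowding, and RFXANK, a factor for class II and class I promoters, rose after ETV4 KD (0.52). The other genes called, TAPBPL, CD1D and HLA-L, had a mean under 1 FPKM.

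The control groups of the experiments also differed, although their tables were normalized separately and the cultures and the hairpin vector differ. Of the 37 genes in both tables, 32 had a higher mean FPKM in Ctrl than in small, with a median ratio of 1.60 and the highest ratio, 7.60, for BST2 (6.84 ± 0.234 FPKM in small, 52.0 ± 0.495 in Ctrl, SD, n = 2). For BST2, IFITM1, OAS3 and IFIH1 the mean in Ctrl was also above the mean in crowded cultures. This difference between controls was not tested and cannot be told apart from the experiment.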

How the data were processed

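RNA-seq of H9 hESCs comprised 4 libraries per experiment. Per the labels and the study's methods, stranded poly-A libraries were trimmed with Trimmomatic, mapped to GRCh37 with HISAT2 2.1.0 and assembled with StringTie 2.1.3b. The authors deposited unnormalized read counts and FPKM per gene, in 1 table per experiment; every gene listed has at least 1 read in each library of its table. Fold changes and p-values of the authors, also deposited there, and 16 further columns of per-sample values were not used.

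Counts were compared in edgeR 4.0.16 (R 4.3.3; filterByExpr, TMM, robust quasi-likelihood test, Benjamini-Hochberg adjustment over all 17672 and 17879 genes tested, and over 17790 genes for the difference between the responses). The study's own thresholds defined called genes (log2 fold change beyond 0.5 in size, adjusted p under 0.05); the difference needed only the latter. Standard errors were obtained from F as |log2 fold change| over its square root. The biological coefficient of variation was 6.83% for crowding and 9.93% for ETV4 KD; between replicates the chi-square per degree of freedom was 5.78 to 23.0, above sampling noise. Every one of the 40 genes is named; values in each library are given for those called or differing between the responses and for the 5 highest of each kind; genes of the further lists are given with values where called and at or above 1 FPKM on average, and otherwise only by name or count. The 40 genes, the further lists and the promoter motifs were chosen with earlier results of these data known. Positions come from GENCODE lifted to GRCh37, and promoter windows from RefSeq on GRCh38.p14. The test was tried on simulated counts first.

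Alternatives were the Wald test of DESeq2 1.42.0, its size factors in edgeR, no filter or a minimum of 10 counts per library, blocking on replicate number, limma 3.58.1 on log2(FPKM + 0.5) or log2(FPKM + 1) for a mean FPKM of at least 0.5, limma on all genes, and each library left out.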

Additional observations from a re-analysis of the deposited data

Results flagged for a closer look

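In 26 of the 37 genes tested the response to crowding differed from the response to ETV4 KD by the test of the difference itself (edgeR, adjusted over 17790 genes). Of all genes tested, 38.5% passed the same test. Among effectors and sensors the crowding log2 fold change minus the ETV4 KD log2 fold change was 2.30 for BST2, 1.39 for IFITM1, 0.52 for IFITM3, 0.95 for ISG15, 1.34 for IFI6, 1.69 for IFI35, 1.21 for IFIT1, 2.71 for OAS3 and 2.12 for IFIH1. It was 0.48 for STAT2, 0.71 for TRIM25 and 0.86 for DTX3L. In the opposite direction it was -0.58 for IRF3, -0.69 for IRF9 and -1.07 for TRIM22.

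Among the antigen presentation genes the difference was 0.64 for HLA-E, 0.54 for B2M, 0.44 for TAP1, 0.31 for TAP2, 1.20 for TAPBP, 0.85 for PSMB8, 2.33 for PSMB9, 1.22 for NLRC5 and 1.05 for ERAP1, and -0.31 for HLA-B and -0.36 for HLA-C. The adjusted p of IFIT1 (0.0343), HLA-B (0.0321), TAP1 (0.0286) and TAP2 (0.0442) in edgeR lay closest to the threshold, and for HLA-C it was 0.0166. Without 1 library, IFIT1 and HLA-B missed the threshold in 7 of 8 fits, TAP2 in 5, HLA-C and TAP1 in 4 and IRF9 in 3. Without ETV4 KD replicate 1 the difference of IFIT1 was 1.80.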

How the results depend on the processing

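Of 8 interferon-stimulated genes called after crowding, 5 were called by the DESeq2 Wald test and 4 by limma under each of the 3 FPKM settings; with 1 library left out the count ranged from 4 (without small replicate 1) to 8. Of 12 called after ETV4 KD, limma on log2(FPKM + 1) called 5 and limma on all genes 7, and with 1 library left out 5 (without Ctrl replicate 1) to 13 were called. The HLA class I and peptide processing genes stayed at 2 called after crowding and 4 to 5 after ETV4 KD with a library left out, while for the difference 7 to 11 of 12 passed, 7 without crowded replicate 2 or either small library; for interferon-stimulated genes 13 to 18 passed. Over all genes, 2851 calls after crowding became 1717, 1256 and 1839 with limma on log2(FPKM + 0.5), log2(FPKM + 1) and all genes, and 2321 after ETV4 KD became 1325 with log2(FPKM + 1) and 1502 with all genes; without 1 library they were 2407 to 3408 and 1587 to 3390, and the difference 4862 to 8230. IRF9 after crowding changed sign under limma, to 0.0057, 0.0049 and 0.0057. Other sign changes came only from a left-out library and concerned genes that were not called: after crowding DTX3L (-0.085 to 0.15), ERAP1 (-0.070 to 0.21), HLA-E (-0.010 to 0.044), IFIT5 (-0.18 to 0.27), IRF3 (-0.16 to 0.039), IRF7 (-0.22 to 0.42), IRF9 (-0.17 to 0.078), PARP9 (-0.24 to 0.0013), TAP2 (-0.067 to 0.088); after ETV4 KD BST2 (-0.50 to 0.043), IRF1 (-0.023 to 0.33); for the difference IFITM2 (-0.043 to 0.074), MX1 (-0.071 to 0.47), PSMB10 (-0.26 to 0.0056). On simulated counts limma on log2 FPKM made a larger share of false calls than edgeR in both experiments. With the minimum mean of 0.5 FPKM, limma tested 19 interferon-stimulated genes after crowding and 21 after ETV4 KD. On all genes it tested 25 and 26 and called 4 and 7, against 4 and 9 with log2(FPKM + 0.5) and that minimum. Testing the genes left out thus did not raise the limma counts.

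The labels do not say that replicate numbers mark shared cultures (correlation of same-numbered deviations -0.0414 for crowding and 0.0856 for ETV4 KD). With the replicate block 7 and 2 genes of the 2 kinds were called after crowding, 14 and 5 after ETV4 KD, and 15 and 11 for the difference, and 2874, 2901 and 8008 of all genes; genes under the adjusted p alone went from 3847 to 6894 after ETV4 KD. Over all settings for the 40 genes and ETV4, 1219 values kept direction and side of the threshold, 85 lost a call, 16 gained one and 24 changed sign. Depth limits most the genes under 1 FPKM, such as IFI16, IFIT3, OAS3 and IFIH1.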
